A study of Mus musculus with 9 samples.

Results

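*Clic5*, *Tspan15* and *Htra4* were followed through all 9 libraries as marker genes of the synovial lining. The members were found by their symbols in the gene lists, where they are 3 of 54534 features, and each symbol stood for a single feature. *Clic5* and *Tspan15* are among the genes by which the study defined mature fibroblast-like synoviocytes (FLS), so their presence in lining cells was not an open question. The libraries hold cells sorted from the synovial joints of *Gdf5-Cre;Tom;Pdgfrα-H2BGFP* mice, and all groups carry these alleles. Cre under *Gdf5* regulatory sequence switched on tdTomato (Tom) in descendants of the embryonic joint interzone, and the *Pdgfrα* allele gave nuclear green fluorescent protein (GFP) in fibroblasts. Tom+ cells (*Gdf5* lineage) were taken from joints in steady state (labelled naive) (2 libraries) and 6 days after a full-thickness cartilage scratch in the trochlear groove (4 libraries). Tom-GFP+ cells, which express *Pdgfrα* outside that lineage, were taken in steady state (1 library) and at the same time after injury (2 libraries). The mice were 11 to 12 weeks old by the labels. The study's figure legends give 11 weeks for the steady-state mice and 12 weeks for the injured mice. Age and injury thus cannot be told apart in the injury comparisons. The study counts the Tom+ libraries as separate mice and calls the Tom-GFP+ mice matched, without saying to which Tom+ library each belongs, so the lineage tests take the libraries as unpaired. Moreover, in Tom-GFP+ cells the sort itself requires *Pdgfrα* activity.

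The synovial lining is a thin sheet of fibroblasts and macrophages that faces the joint cavity. Its fibroblasts secrete lubricin, the product of *Prg4*, and hyaluronan, and they lack the sublining surface marker *Thy1*. Clic5 is a chloride intracellular channel protein that binds the ezrin, radixin and moesin scaffold linking membrane to actin, and it is known from hair cell stereocilia and kidney podocytes. Tspan15 is a tetraspanin of the TspanC8 subgroup that partners the sheddase Adam10 and directs it to substrates such as N-cadherin. Htra4 is a secreted serine protease of the HtrA family that is best known from placenta.

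On GRCm38 with the GENCODE vM21 annotation, *Clic5* (ENSMUSG00000023959) lies at chr17:44188584-44280172 on the plus strand, *Tspan15* (ENSMUSG00000037031) at chr10:62185396-62231251 on the minus strand and *Htra4* (ENSMUSG00000037406) at chr8:25024929-25038962 on the minus strand. Promoters are shown because the members were detected together, as described below. RefSeq start sites on GRCm38.p6 were matched for *Clic5* and *Tspan15*, and the sequence upstream of every annotated start in the window reads as follows, 5′ to 3′ on the gene's strand, with GC boxes (GGGCGG on either strand) in capitals.
*Clic5* chr17:44188322-44188571, plus strand: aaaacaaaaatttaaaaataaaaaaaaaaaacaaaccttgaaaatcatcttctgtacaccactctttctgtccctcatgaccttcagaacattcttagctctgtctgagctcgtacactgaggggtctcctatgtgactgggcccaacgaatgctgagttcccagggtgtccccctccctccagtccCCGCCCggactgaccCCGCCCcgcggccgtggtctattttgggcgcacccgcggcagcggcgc
*Tspan15* chr10:62231277-62231468, minus strand: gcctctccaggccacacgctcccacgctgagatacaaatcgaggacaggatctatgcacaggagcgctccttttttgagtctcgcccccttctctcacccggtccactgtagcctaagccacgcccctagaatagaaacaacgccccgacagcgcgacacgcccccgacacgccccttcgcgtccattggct
The *Clic5* stretch (250 bases) held 2 GC boxes and the *Tspan15* stretch (192 bases) held 0. Of all 32851 promoter windows of 300 bases, which are longer than these stretches, 35.7% held at least 1. The GC content was 52.8% and 60.9%, beside a median of 52.7% over all windows. In the windows of 300 bases, the AP-1 letters TGANTCA matched once in *Tspan15*, 12 bases before the RefSeq start, and not in *Clic5* (7.81% of all windows). The match lay outside the printed stretch, and thus downstream of another annotated start. Neither window held the CRE letters TGACGTCA (1.79%), the SOX letters ATTGTT (10.7%) or the forkhead letters GTAAACA (3.65%) on either strand.

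The deposited values are counts of unique molecular identifiers (UMIs), and libraries held 333 to 865 barcodes and 2866464 to 15033902 UMIs. After filtering, 4788 of 5161 barcodes were kept, and cells with 3 or more immune or endothelial markers were set aside, which left 4656 stromal cells. Cells were gated for the lining's profile, with *Prg4* of at least 50 UMIs per 10000 and 0 *Thy1* UMIs. This rule uses none of the members but admits other cells, and 42 of those it took were chondrocyte-lineage-like in the clustering below. The gate gave 865 cells. They were 27 and 43 in the steady-state Tom+ libraries, 138 to 252 in the injured Tom+ libraries and 28 and 37 in the injured Tom-GFP+ libraries. The steady-state Tom-GFP+ library had 2 such cells and was left out of fits on the gate. Near the threshold, 41 *Thy1*-negative cells had 40 to 50 *Prg4* UMIs per 10000 and 23 had 50 to 60. Gate cells were sequenced more deeply than other stromal cells in 8 of 9 libraries (median UMIs per cell of 12551 to 20226 against 7900 to 19021). The exception was injured Tom+ replicate 1. Of the 36 pairs of libraries, 10 shared barcodes, at most 2 in a pair. Injured Tom+ replicate 1 was also the only injured library with the gene list in the older format, which the 3 steady-state libraries share.

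All members were higher in *Prg4*-high *Thy1*-negative cells than in other stromal cells of the same library, in 8 of 8 libraries. The plot of levels inside and outside the gate shows each library. *Clic5* stood in steady-state Tom+ gate cells at 993 and 549 CPM (a gene's share of all UMIs of the summed cells, in ppm), in injured Tom+ cells at 312, 539, 621 and 658, and in injured Tom-GFP+ cells at 321 and 687. Outside the gate it stood at 2.84 and 9.12 CPM in steady-state Tom+ cells, at 6.83, 6.06, 46.1 and 13.6 in injured Tom+ cells and at 1.64 and 22.4 in injured Tom-GFP+ cells. The lowest gate value was thus above the highest value elsewhere, which belonged to injured Tom+ replicate 3. The log2 fold change was 5.62 (SE 0.38, adjusted p = 2.06e-07, edgeR's quasi-likelihood test with the library as a block and Benjamini-Hochberg adjustment over 10601 genes). The test gives no SE itself. Here and below SE is the absolute log2 fold change divided by the square root of the test's F statistic.

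*Tspan15* stood at 509 and 407 CPM in steady-state Tom+ gate cells, at 186, 279, 339 and 341 in injured Tom+ gate cells and at 314 and 409.6 in injured Tom-GFP+ gate cells. Outside the gate its level ranged from 5.98 to 17.6 CPM over the same 8 libraries, so the classes did not overlap (log2 fold change 4.73, SE 0.20, edgeR adjusted p = 4.96e-09). *Htra4* stood at 884 and 1430.3 CPM in steady-state Tom+ gate cells, at 969.6, 1025, 1657 and 1674 in injured Tom+ gate cells and at 1460 and 1910.0 in injured Tom-GFP+ gate cells. Outside the gate it ranged from 30.8 to 124 CPM, again without overlap (log2 fold change 4.33, SE 0.19, edgeR adjusted p = 7.32e-09). In this comparison 17.7% of all genes tested were higher in the gate by edgeR, 19.8% were lower and 37.5% differed in either direction. The median log2 fold change over all genes was -0.01. The share of all genes that were higher in 8 of 8 libraries, or whose classes did not overlap, was not counted.

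**Figure D1:**
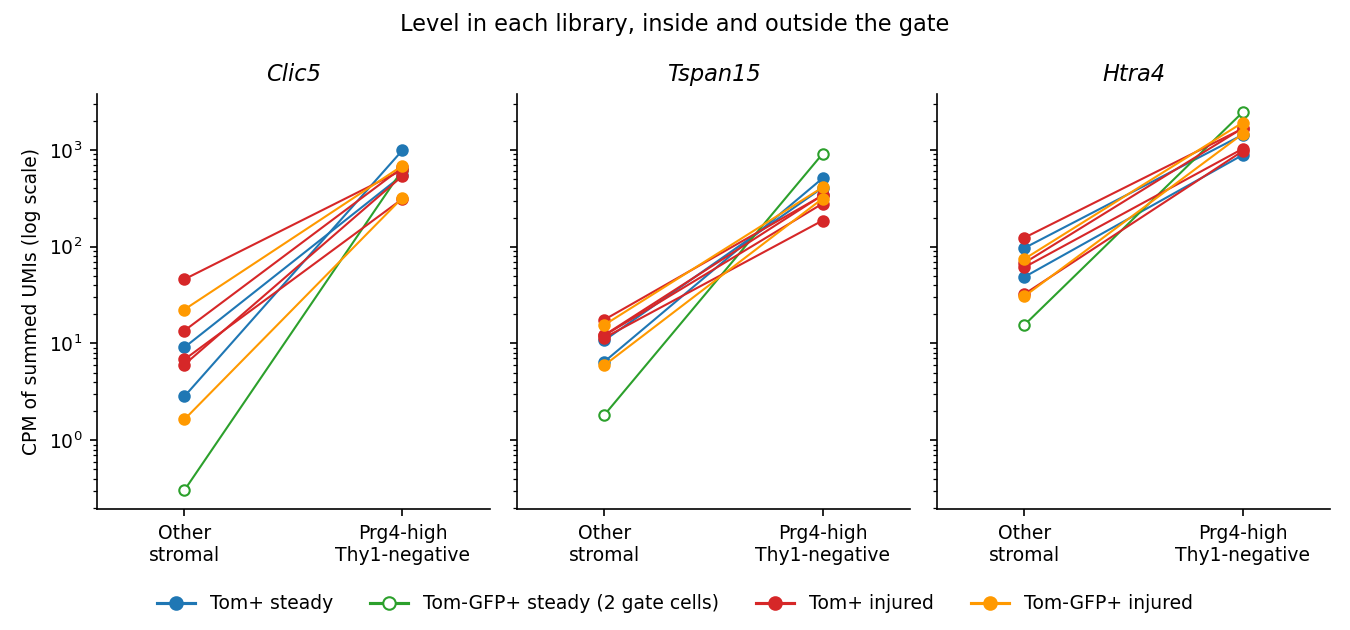
Level of each member in CPM of summed UMIs (log axis) in other stromal cells and in *Prg4*-high *Thy1*-negative cells, with a line for each of the 9 libraries coloured by group and open symbols for the steady-state Tom-GFP+ library, which had 2 gate cells. Every line rises, from at most 46.1, 17.6 and 124 CPM outside the gate to at least 312, 186 and 884 CPM within it for *Clic5*, *Tspan15* and *Htra4*.

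The other lining genes listed were higher in the same cells, 10 of 10, among them *Prg4* itself, which set the gate. Several are genes by which the study describes these cells, so the count is no independent evidence. *Col22a1*, a collagen of tissue junctions, had a log2 fold change of 4.75 (SE 0.21). *Hbegf*, an epidermal growth factor receptor ligand, had one of 4.48 (SE 0.25), and *Itga6*, a laminin receptor subunit, one of 3.86 (SE 0.22). *Cd44*, the hyaluronan receptor, had the smallest of the list (0.51, SE 0.15, edgeR adjusted p = 0.0197). The median of the list was 2.64, below each of the members.

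Relatives and partners of the members changed less evenly. Of the 4 other CLIC genes, *Clic1* and *Clic4* were tested and both were higher, by 0.29 (SE 0.08) and 0.46 (SE 0.07) on the log2 scale. Of 6 genes of the ezrin scaffold 5 were tested. *Slc9a3r1*, which encodes the adaptor NHERF1 that binds these proteins, was higher by 3.07 (SE 0.14, edgeR adjusted p = 9.14e-09), and moesin (*Msn*) by 0.57 (SE 0.11). The related adaptor *Slc9a3r2* was lower, with a log2 fold change of -0.68 (SE 0.19). Ezrin (*Ezr*, 0.11) and radixin (*Rdx*, -0.19) did not pass the test. The scaffold genes thus split into 2 higher, 1 lower and 2 not called, where 17.7% of all genes tested were higher and 19.8% lower.

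Of 8 genes around the TspanC8 tetraspanins 6 were tested. *Adam10*, the sheddase that Tspan15 partners, was higher in the gate by 0.98 (SE 0.09, edgeR adjusted p = 3.19e-06), and *Tspan17*, another TspanC8 member, by 1.02 (SE 0.10). *Cdh2*, which encodes N-cadherin, was lower, with a log2 fold change of -2.17 (SE 0.44, edgeR adjusted p = 0.00169). *Tspan5* (0.28), *Tspan14* (0.07) and the related sheddase *Adam17* (0.13) did not pass. Of the 3 other HtrA proteases, *Htra1* was higher (1.05, SE 0.16), *Htra2*, a mitochondrial protease, was lower (-0.55, SE 0.08) and *Htra3* did not pass (0.14, SE 0.16). Genes of the TspanC8 and HtrA lists thus moved in both directions in the gate, as did all genes tested (17.7% higher and 19.8% lower). Lists this short cannot be set apart from those shares.

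Detection within single gate cells was frequent for every member and highest for *Htra4*. Among the 865 gate cells, a *Clic5* UMI was found in 73.6% (exact 95% binomial interval 70.6 to 76.6, which covers counting error only), a *Tspan15* UMI in 74.7% (71.6 to 77.5) and an *Htra4* UMI in 90.8% (88.6 to 92.6), at a median of 16686 UMIs per cell. The 110 cells with immune markers (median 8390.5 UMIs per cell) had a UMI of these genes in 0.909%, 0.909% and 2.73%, which is read as background. Cells that met the *Prg4* condition but held *Thy1* UMIs (83 cells, median 21172 UMIs) had shares of 37.3%, 44.6% and 69.9%. *Prg4*-low *Thy1*-negative cells (1416 cells, median 9692.5 UMIs) had 2.61%, 4.24% and 19.4%, and *Prg4*-low *Thy1*-positive cells (2292 cells, median 11562 UMIs) had 1.48%, 4.41% and 17.9%. In both *Prg4*-low classes the *Htra4* and *Tspan15* shares were above the immune shares by several times, and the *Clic5* share was 1.48% to 2.61%. The immune shares rest on 1, 1 and 3 cells, with exact 95% binomial intervals up to 4.96%, 4.96% and 7.76%. Only the *Htra4* shares lay above these bounds, which cover counting error only. Just 3 libraries gave at least 10 cells with immune markers, against 9 for each *Prg4*-low class, and the immune cells were shallower. The part of library and depth in these differences was not tested.

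The members were found together in most gate cells. UMIs of all 3 occurred in 574 of 865 (66.4%, exact 95% binomial interval 63.1 to 69.5), of 2 in 118, of 1 in 110 and of none in 63. By library, the share with all 3 was 66.7% and 55.8% in steady-state Tom+ cells, 51.2%, 65.5%, 75.3% and 76.1% in injured Tom+ cells and 53.6% and 78.4% in injured Tom-GFP+ cells. In every one of these 8 libraries it was above the product of the 3 single shares, which was 48.8%, 42.3%, 29.3%, 50.4%, 63.2%, 61.0%, 36.8% and 73.0% in the same order. With each cell thinned to 5000 UMIs, to set cells at the same depth, the joint share ran from 31.4% to 58.3% and the product from 15.6% to 47.3%. The members shared depth and cell state within a library, so this is given as a description. Within gate cells of a library, Spearman's rho between levels of *Clic5* and *Tspan15* was 0.64 to 0.81 (8 libraries of 27 to 252 cells), against 0.31 to 0.67 for *Clic5* and *Htra4*, 0.31 to 0.71 for *Tspan15* and *Htra4*, and 0.12 to 0.68 for a member and *Prg4*. All levels are divided by the same cell total, and many cells are at 0.

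**Figure D2:**
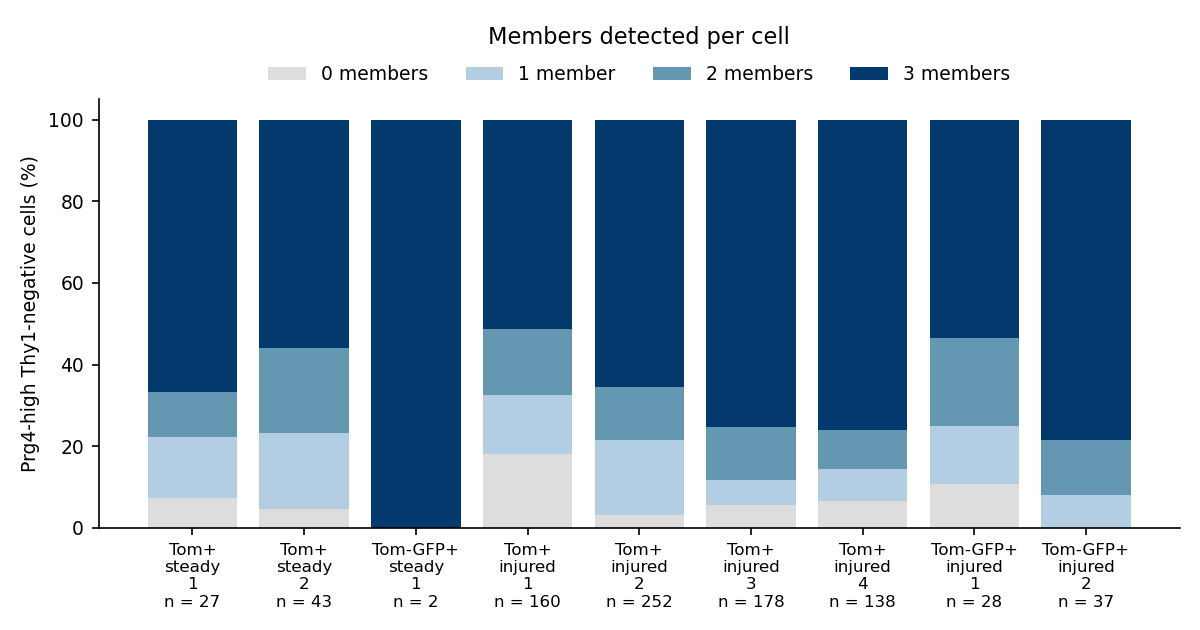
Share in percent of *Prg4*-high *Thy1*-negative cells with UMIs of 0, 1, 2 or all 3 members, as stacked bars for each library without thinning, with the number of gate cells under each bar. Cells with all 3 make up 51.2% to 78.4% in the 8 libraries with at least 10 gate cells, and both gate cells of the steady-state Tom-GFP+ library hold all 3.

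Read the other way, cells with all 3 members were nearly all gate cells. Of 613 stromal cells with all 3, 574 (93.6%) lay in the gate. Of the 39 outside it, 28 failed only by a *Thy1* UMI, 20 of them by a single one, 7 failed only by *Prg4* and 4 failed by both. Of these 39 cells 27 belonged to the lining fibroblast-like cluster. A single member was less particular to the gate, in the order *Clic5* (86.2% of its 739 positive stromal cells in the gate), *Tspan15* (76.5% of 844) and *Htra4* (51.4% of 1527). Of *Clic5*-positive cells 84.8% had a *Tspan15* UMI and 93.0% an *Htra4* UMI, whereas of *Htra4*-positive cells 45.0% had a *Clic5* UMI.

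Detection followed the amount of *Prg4* in *Thy1*-negative cells, which the plot of detection across *Prg4* shows. In injured Tom+ cells thinned to 5000 UMIs, *Clic5* was expected in 0.965% of cells without *Prg4*, in 3.56% of cells with 20 to 50 *Prg4* UMIs per 10000, in 17.5% with 50 to 100, in 37.3% with 100 to 200, in 69.7% with 200 to 500 and in 86.2% with 500 and over. For *Tspan15* these shares were 1.48%, 7.34%, 20.02%, 41.2%, 64.1% and 76.2%. *Htra4* was already at 22.5% in cells with 5 to 20 *Prg4* UMIs per 10000 and at 34.3% with 20 to 50, and reached 94.2% with 200 to 500. Steady-state Tom+ cells had uneven shares above the threshold, on 11 to 29 cells a bin. There *Clic5*, *Tspan15* and *Htra4* were expected in 55.5%, 52.7% and 94.0% of cells with 50 to 100. With 100 to 200 the shares were lower, at 35.2%, 29.6% and 65.2%. In injured cells, the gate's lower edge held a smaller share of member-positive cells than its upper part.

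**Figure D3:**
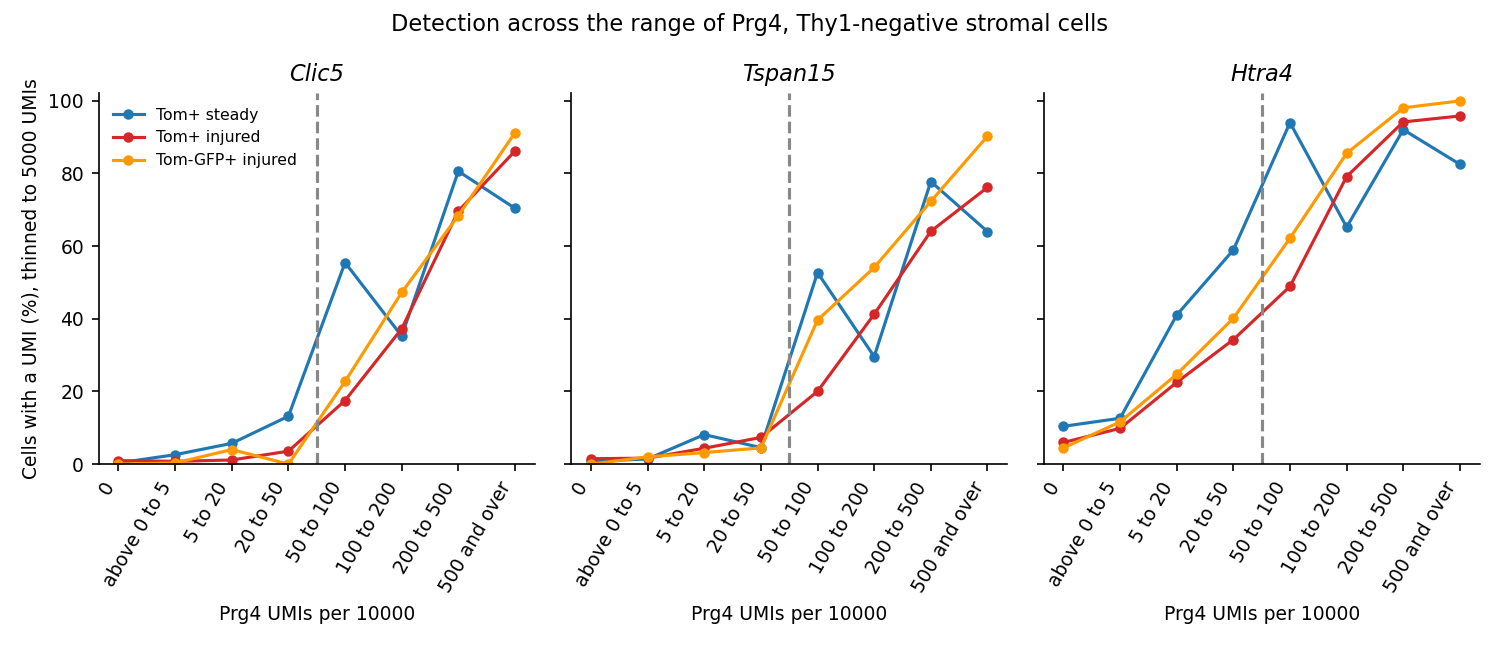
Expected share in percent of *Thy1*-negative stromal cells with a UMI of each member after thinning to 5000 UMIs, by *Prg4* UMIs per 10000, with a line for each group that had at least 10 gate cells in every library and a dashed line at the gate's threshold of 50. In injured Tom+ cells *Clic5* goes from 0.965% to 86.2% across the bins, and *Htra4* is at 34.3% in the bin just below the threshold.

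Clustering of all cells that passed the filter, by canonical correlation analysis in Seurat with the members and their listed relatives kept out of the features, gave 16 clusters. The cluster named lining fibroblast-like from its markers (530 cells, led by *Cystm1*, *Hbegf* and *Col22a1*) had the highest level of every member. *Clic5* stood there at 851 ± 285 CPM (SD, n = 8 libraries with at least 10 of its cells), *Tspan15* at 500 ± 123 and *Htra4* at 1681 ± 335, with UMIs in 96.2%, 97.2% and 97.9% of cells. Since a cluster was drawn from the same cells, these values are a description without a test. Next for *Clic5* was cluster 1, which kept no name (544 cells, led by *Ccl5*, *Rspo2* and *Slpi*), at 50.0 ± 54.9 CPM (n = 9), and its *Tspan15* was at 45.2 ± 27.2. Its *Htra4* stood much closer to the lining-like cluster, at 498 ± 296 CPM. Thus *Htra4* extended into cluster 1 more than *Clic5* and *Tspan15* did.

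The same order held among gate cells alone, where 497 were lining fibroblast-like and 238 belonged to cluster 1. With cells thinned to 5000 UMIs, *Clic5* was expected in 88.0% of the former and 30.8% of the latter, *Tspan15* in 82.6% and 26.5%, and *Htra4* in 96.2% and 86.8%. All 3 were expected in 72.7% and 12.9%. Median *Prg4* was 402 and 210.0 UMIs per 10000. Of the 63 gate cells with no member, 23 were chondrocyte-lineage-like, out of 42 such gate cells, 13 came from a cycling cluster (cluster 9), 11 from cluster 4 and 3 from the lining-like cluster.

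Outside the lining-like cluster and cluster 1, the members were found in different cells. Cycling cluster 9 held all of them, with *Clic5* at 42.1 ± 38.1 CPM, *Tspan15* at 46.6 ± 36.5 and *Htra4* at 147 ± 126 (n = 4). Of its 168 cells 51 were gate cells. Pooled, these gate cells stood at 96.4 CPM of *Clic5*, 124 of *Tspan15* and 375 of *Htra4*, so cluster 9 was not apart from the gate. *Tspan15* stood at 71.0 ± 17.5 CPM in endothelial-like cells (46 cells, n = 2 libraries) and at 47.1 ± 8.70 in mural-like cells, the smooth muscle and pericytes of vessels (101 cells, n = 3). The endothelial-like mean rests on injured Tom+ replicates 1 and 4, which held 12 and 11 of the 46 cells. *Clic5* stood at 29.1 ± 11.6 CPM in endothelial-like cells, with UMIs in 21.7% of them, and had 4 UMIs over all mural-like cells. Shares were higher in the 23 cells set aside for endothelial markers (median 17012 UMIs). There 47.8% had a *Clic5* UMI and 60.9% a *Tspan15* UMI, and none had an *Htra4* UMI. *Htra4* had UMIs in 0 of 46 endothelial-like cells, at a median of 5977.5 UMIs, which allows a share of cells with a UMI of up to 6.52% (3 cells of the total). In a coarser clustering (resolution 0.6) the endothelial-like cluster, also of 46 cells, pooled at 54.2 CPM of *Tspan15*. In a finer one (resolution 1.5) it held 20 cells, at 74.5 CPM of *Tspan15* and 45.9 of *Clic5*. There an unnamed cluster of 26 cells, led by *Esm1*, *Gdpd2* and *Kng1*, was at 0 and 7.65 CPM. *Htra4* was found at 87.8 ± 119 CPM in chondrocyte-lineage-like cells (n = 7). Of these 150 cells 42 were gate cells, which pooled stood at 308 CPM of *Htra4*. By library, the chondrocyte-lineage-like level was uneven. It was 311 CPM in steady-state Tom+ replicate 2, 198 in injured Tom+ replicate 1 and 0 to 38.6 in the rest. In tenocyte-lineage-like cells *Htra4* was at 68.8 ± 71.4 CPM (n = 9), with UMIs in 31.6% of them at a median of 11262.5 UMIs. The steady-state Tom+ libraries were highest there, at 91.7 and 251 CPM, and the rest were at 18.8 to 54.5. In *Thy1*+ sublining fibroblast-like cells *Htra4* UMIs were found in 18.4% of cells and in osteoblast-lineage-like cells in 8.97%, at median depths of 9120 and 9023.5, against 2.86% of immune-like cells at 8252. Below the lining-like cluster, neighbours among the 5 highest had overlapping ranges of mean ± SD for every member.

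**Figure D4:**
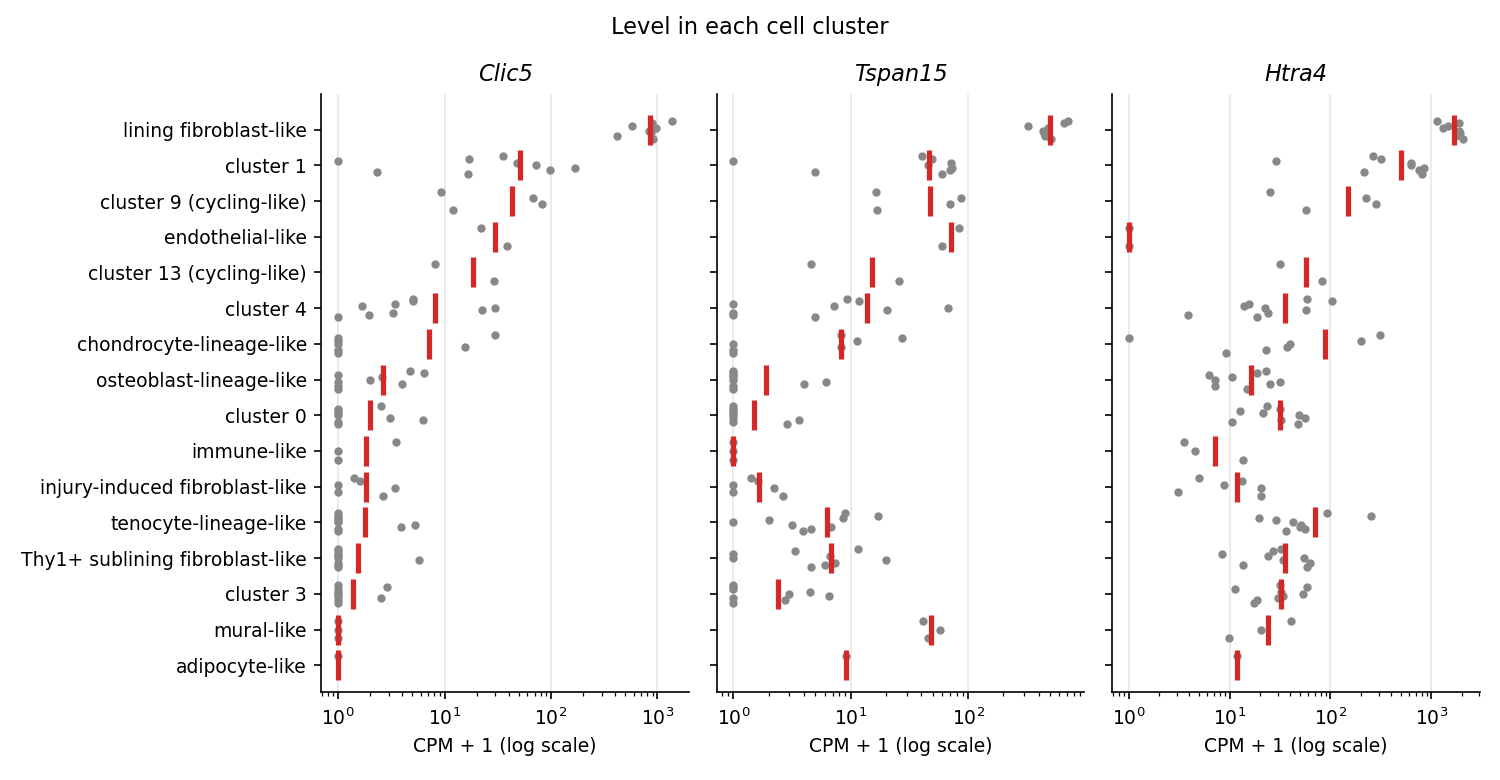
Level of each member as CPM + 1 (log axis) in each of the 16 clusters, with a grey point for each library that gave at least 10 cells and a red bar at the mean over those libraries. The lining fibroblast-like cluster is highest for every member, and cluster 1 reaches 498 CPM of *Htra4* on average against 50.0 CPM of *Clic5* and 45.2 CPM of *Tspan15*.

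Per *Clic5* UMI, gate cells held 0.891 to 4.55 *Htra4* UMIs in the 8 libraries, and other stromal cells of the same libraries 2.69 to 18.7. The ratio was higher outside the gate in 8 of 8 libraries, although by little in injured Tom+ replicate 3 (2.67 against 2.69). Much of the *Clic5* outside the gate in injured libraries sat in few cells. In injured Tom+ replicate 3, which had the highest level there, 142 of 196 *Clic5* UMIs came from 9 cells with high *Prg4* and a *Thy1* UMI. Without its 6 lining fibroblast-like cells its level outside the gate was 20.5 CPM in place of 46.1. With such cells left out likewise, injured Tom+ replicates 1, 2 and 4 were at 1.11, 4.94 and 3.14 CPM, so replicate 3 stayed highest. Replicate 3 also held the most cells set aside for immune or endothelial markers, 50 of 518. What part this had in its values was not tested.

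Over the 16 clusters, the genes most like each member were sought by Pearson's r of the mean log2(CPM + 1), among 10600 other genes. For *Clic5* they were *Gchfr* (0.92), *Hid1* (0.91), *Sox11* (0.91), *S100a3* (0.90) and *Gm13490* (0.89). For *Tspan15* they were *Slc4a8* (0.88), *Trappc6b* (0.88), *Cd151* (0.87), *Rheb* (0.87) and *Akap2* (0.84), and for *Htra4* *Sema3a* (0.89), *Rragd* (0.88), *Dlx4os* (0.86), *Itgb8* (0.86) and *Ugp2* (0.85). Between members r was 0.80 for *Clic5* and *Tspan15*, 0.57 for *Clic5* and *Htra4* and 0.46 for *Tspan15* and *Htra4*. Clusters share libraries and differ in depth, so no test is attached.

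With injury, gate cells were a larger share in every injured Tom+ library than in both steady-state ones, and no member's level within the gate passed the test. Gate cells were 8.26% and 7.93% of stromal cells in steady state and 21.3%, 30.8%, 38.0% and 23.6% after injury. The groups did not overlap (28.4% ± 7.58 against 8.10% ± 0.229, SD), and the 2-sided exact permutation test gave p = 0.0667, the smallest that 4 against 2 libraries allow (0.333 adjusted over 5 shares tested). Within the gate, *Clic5* was at 533 ± 155 CPM after injury (n = 4) and at 771 ± 314 before it (n = 2), a log2 fold change of -0.48 (SE 0.38, edgeR adjusted p = 0.520). *Tspan15* was at 286 ± 72.5 against 458 ± 72.1, and here all 4 injured libraries lay below both steady-state ones (-0.62, SE 0.26, adjusted p = 0.196, edgeR). The share of all genes with such a separation was not counted, and 2100 of 9944 genes had an unadjusted p under 0.05 by edgeR. *Htra4* was at 1331 ± 386 against 1157 ± 386, with overlapping groups (0.25, SE 0.29, adjusted p = 0.677, edgeR). In this comparison 2.66% of 9944 genes were called (0.915% higher and 1.75% lower), and 0 of the 3 members and 0 of the 10 other lining genes were. With the gene list format as a term, which sets injured replicate 1 with the steady-state libraries, the values were -1.27 (*Clic5*, adjusted p = 0.206), -1.26 (*Tspan15*, 0.0645) and -0.22 (*Htra4*, 0.827) by edgeR. Without steady-state replicate 1, *Clic5* was at 0.054 and *Htra4* at -0.0079, both on the log2 scale.

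Restricting the gate to its lining fibroblast-like cells, a choice made after seeing the data, left *Clic5* at -0.48 (SE 0.30), *Tspan15* at -0.68 (SE 0.20, adjusted p = 0.0805, edgeR) and *Htra4* at 0.13 (SE 0.23) after injury. Such cells were 41 of 70 gate cells in steady-state Tom+ libraries and 409 of 728 after injury. Another 15 of 70 and 209 of 728 belonged to cluster 1, 1 of 70 and 46 of 728 to cycling cluster 9 and 12 of 70 and 30 of 728 to chondrocyte-lineage-like cells. The share of gate cells with each member did not pass either. With thinning to 5000 UMIs, *Clic5* was expected in 63.4% ± 12.1 of injured and 65.0% ± 13.7 of steady-state gate cells, *Tspan15* in 59.0% ± 9.29 and 59.3% ± 4.52, and *Htra4* in 86.6% ± 11.0 and 82.9% ± 5.33 (2-sided exact permutation tests, p = 0.867, 1 and 0.8). With the gate at 100 *Prg4* UMIs per 10000, *Htra4* was expected in 91.5% ± 4.36 of injured and 81.1% ± 5.34 of steady-state cells, a difference of 10.4 percentage points (exact permutation p = 0.0667, the smallest possible). All 3 together were expected in 47.8% ± 12.2 and 48.9% ± 7.26 (exact permutation p = 1). Thinning left out 2 of 27 and 3 of 43 gate cells in steady state and 5 to 12 per library after injury, as too shallow. With 2 steady-state libraries, changes in level smaller than the spread could not be seen. The share tests could not pass at any size of change, so nothing is concluded from them.

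Over all stromal cells, no member passed the test for injury in Tom+ cells. In such bulk sums, more gate cells and more RNA per cell cannot be told apart. *Clic5* went from 132 and 72.6 CPM in steady-state Tom+ libraries to 69.3, 193, 286 and 207 after injury (log2 fold change 0.96, SE 0.70, adjusted p = 0.382, edgeR). *Tspan15* went from 72.0 and 57.4 to 47.2, 106, 152 and 111 CPM (0.75, SE 0.51, adjusted p = 0.342, edgeR). *Htra4* went from 158 and 254 to 224, 399, 764 and 551 CPM (1.30, SE 0.56, adjusted p = 0.146, edgeR). Injured replicate 1 was the lowest of its group for each and overlapped with steady state. With the gene list format as a term the direction turned for *Clic5* (-0.49) and *Tspan15* (-0.39). Here 13.6% of 14855 genes were called (6.48% higher and 7.14% lower). Of the 10 other lining genes, *Has1*, *Hbegf*, *Col22a1* and *Cd44* were called higher, 0 were called lower and 6 were not called. In the stromal cells outside the gate, none of the members passed (*Clic5* 1.53, SE 1.18, *Tspan15* 0.64, SE 0.41, *Htra4* 0.01, SE 0.54), where 12.6% of 13655 genes did (6.15% higher and 6.42% lower). The 10 other lining genes split there, with *Has1*, *Hbegf* and *Cd44* higher, *Cd55* and *Creb5* lower and 5 not called.

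In Tom-GFP+ cells all members were lower in the single steady-state library than in both injured ones. The share of all genes with this order was not counted. *Clic5* was at 7.54 CPM in steady state and at 27.1 and 149.9 CPM after injury, *Tspan15* at 12.4 against 30.5 and 91.2, and *Htra4* at 43.8 against 145 and 427. The log2 fold changes were 3.61 (SE 1.24), 2.36 (SE 0.83) and 2.78 (SE 0.87), with edgeR adjusted p of 0.139, 0.143 and 0.117, in a comparison where 0.936% of genes were called (0.377% higher and 0.559% lower). DESeq2 and edgeR without a filter on low counts called all 3 (adjusted p of 0.00449 to 0.0437). Both also called more genes in all, 915 of 14829 by DESeq2 and 1283 of 25951 without the filter. The spread of the lone library is borrowed from the other groups. Without injured Tom-GFP+ replicate 2 the values were 1.92, 1.38 and 1.81, without replicate 1 they were 4.38, 2.95 and 3.35, and with the gene list format as a term they were 1.88, 0.97 and 1.42. The injury effects of the lineages differed by 2.65 (SE 1.35), 1.61 (SE 0.93) and 1.48 (SE 0.95) on the log2 scale, larger in Tom-GFP+ cells, with an edgeR adjusted p of 1.00 for each. In that fit 0 genes passed, 343 did at an unadjusted p under 0.05, edgeR without a filter called 4 and DESeq2 called 3. Without injured Tom-GFP+ replicate 2 these differences were 0.97, 0.63 and 0.51, and without replicate 1 they were 3.42, 2.20 and 2.05.

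**Figure D5:**
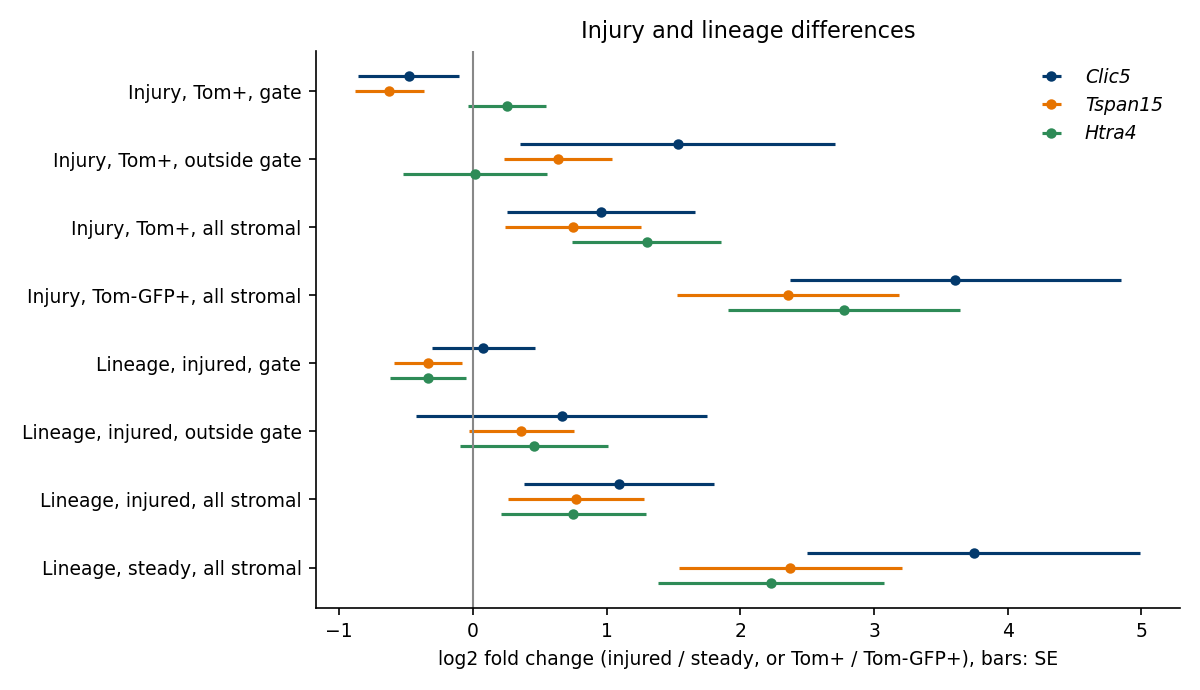
Log2 fold change of each member with its standard error as a bar, for injured against steady-state cells and for Tom+ against Tom-GFP+ cells, in the gate, outside it and over all stromal cells. The standard error is the absolute log2 fold change divided by the square root of edgeR's F statistic. Within the gate every value lies between -0.62 and 0.25, and over all stromal cells the values lie between 0.75 and 3.75.

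Between the lineages, gate cells carried the members in both. The steady-state Tom-GFP+ library had 2 gate cells among 407 stromal cells (0.491%). One held 6 *Clic5*, 12 *Tspan15* and 13 *Htra4* UMIs among 18517, with 0 tdTom UMIs, and the other held 18, 23 and 81 among 20006, with 1 tdTom UMI. After injury the gate took 5.67% and 13.96% of Tom-GFP+ stromal cells. Of their gate cells with all 3 members, 2 of 15 and 2 of 29 had a tdTom UMI, against 97.6% to 100% of such cells in the 6 Tom+ libraries. H2BeGFP UMIs were found in 100% of these cells in both Tom-GFP+ libraries. Within injured gate cells, *Clic5* was at 533 ± 155 CPM in Tom+ (n = 4) and 504 ± 259 in Tom-GFP+ libraries (n = 2), a log2 fold change of 0.08 (SE 0.39). *Tspan15* was at 286 ± 72.5 against 362 ± 67.8 (-0.34, SE 0.26) and *Htra4* at 1331 ± 386 against 1685 ± 318 (-0.34, SE 0.28). The adjusted p from edgeR was 0.999 for each, and 0.0101% of the 9944 genes were called. Without injured Tom-GFP+ replicate 1 the *Clic5* value was -0.38. These tests do not show that levels were equal.

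Over all stromal cells, the members stood higher in Tom+ than in Tom-GFP+ cells in value but did not pass the test. In steady state the log2 fold changes were 3.75 (SE 1.25) for *Clic5*, 2.37 (SE 0.83) for *Tspan15* and 2.23 (SE 0.84) for *Htra4*, with edgeR adjusted p of 0.640, 0.687 and 0.739 and 0.0135% of genes called, all of them lower in Tom+ cells. Both Tom+ libraries lay above the Tom-GFP+ library for each member, and the share of all genes with that order was not counted. After injury they were 1.09 (SE 0.71), 0.77 (SE 0.51) and 0.75 (SE 0.54), with edgeR adjusted p of 0.921, 0.924 and 0.943 and 0.0471% of genes called (0.0135% higher and 0.0337% lower), and the groups overlapped for each member. Without injured Tom-GFP+ replicate 1 these were 0.32, 0.17 and 0.17, and without replicate 2 they were 2.78, 1.74 and 1.72. Outside the gate the injured lineages differed by 0.66 (SE 1.09), 0.36 (SE 0.39) and 0.46 (SE 0.55), and 0.0146% of genes were called.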

How the data were processed

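Cells were profiled with 10x 5′ chemistry and the authors counted UMIs with Cell Ranger against GRCm38.p6. The deposited values are raw UMI counts per gene and barcode for 54534 features, with the 2 reporter transcripts. The headers of 5 injured libraries name Cell Ranger 3.0.2. The other 4 libraries carry an older gene list format. Library totals ran from 2866464 to 15033902 UMIs over 333 to 865 barcodes, and intervals cover counting error only.

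A barcode was kept when it had 500 or more detected genes, 1000 or more UMIs and a mitochondrial share of 10% or less. Cells with 3 or more immune (110) or endothelial (23) markers were set aside, 132 in all. Scrublet in scanpy 1.11.5 called 45 of 4939 cells as doublets (0.911%), and none were removed in the main result. UMIs were summed per library and class and tested with edgeR 4.0.16 (R 4.3.3; TMM, filterByExpr, quasi-likelihood, adjusted p of 0.05), in classes with at least 10 cells. The library was a block for the gate comparison, and 1 fit over groups served the others. DESeq2 1.42.0 was an alternative. Shares were compared by exact permutation, after thinning each cell in expectation to 5000 UMIs. Clusters came from Seurat 5.3.0 with 2000 genes, 30 dimensions and resolution 1. The edgeR step was tested on simulated data. Other alternatives varied normalization, filters, gate, doublets, blocks and single libraries. P-values measure the spread between these libraries. Members, lists and tests were chosen with earlier results of these data known. Genes named are the members, called genes of the fixed lists and each member's 5 most similar genes. The nearest relatives that did not pass were also given values.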

Additional observations from a re-analysis of the deposited data

Results flagged for a closer look

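A pair of values stood apart from the rest of its group by Dixon's criterion, which chance meets in about 1 in 20 groups. The criterion was applied to many sets of injured Tom+ values, namely the levels of the members and *Prg4* and the shares of cells. Some values beyond it can therefore be met by chance. *Prg4* in gate cells of injured Tom+ replicate 1 was at 28788 CPM, and the other 3 injured Tom+ libraries were at 39510 to 40509 CPM. That library also had the lowest *Clic5*, *Tspan15* and *Htra4* of its group in the gate. *Tspan15* outside the gate in injured Tom+ replicate 3 was at 17.6 CPM, against 11.5 to 12.2 in the other 3. Without the 6 lining fibroblast-like cells there it was at 8.20 CPM. With such cells left out likewise, replicates 1, 2 and 4 were at 6.23, 11.0 and 5.30 CPM. The part of these libraries' makeup in either value was not tested.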

How the results depend on the processing

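Of 642 values recomputed under alternatives, 587 kept their direction and side of the threshold, 46 reversed and 9 became called. Values of the share tests could not cross the threshold, since their smallest exact permutation p was 0.0667. Levels by cluster had no test and counted as kept when they moved by less than their SD. The gate comparison kept all 3 calls under every alternative run. Reversals and calls gained follow, as log2 fold changes, and the cause was not tested.

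Within the gate, injury in Tom+ cells ranged over left-out libraries from -0.79 to 0.054 for *Clic5* and from -0.0079 to 0.70 for *Htra4*. *Htra4* was -0.22 with the format term and -0.12 with the replicate block. For lineage in the injured gate, *Clic5* was -0.026 with high Scrublet scores left out, -0.016 with the gate at 100 and -0.19 with the replicate block, and ranged from -0.38 to 0.79 over left-out libraries. *Htra4* was -0.73 with the replicate block (adjusted p = 0.0311). Over all stromal cells, injury in Tom+ cells with the format term was -0.49 for *Clic5* and -0.39 for *Tspan15*, and *Htra4* without a filter was 1.25 (adjusted p = 0.0329). Injury in Tom-GFP+ cells was called by DESeq2 (3.56, 2.31 and 2.72 for *Clic5*, *Tspan15* and *Htra4*) and without a filter (3.58, 2.32 and 2.74). Lineage in steady state was called for *Clic5* without a filter (3.77, adjusted p = 0.0272).

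Outside the gate, injury of *Htra4* in Tom+ cells was -0.032 with RLE, -0.022 with DESeq2, -0.011 without a filter, -0.056 with the loose cell filter, -0.14 without high Scrublet scores, -0.069 with immune cells kept, -0.51 with 1 *Thy1* UMI allowed, -1.15 with the format term and -0.65 with the replicate block, and ranged from -0.39 to 0.52 over left-out libraries. Lineage outside the injured gate with the replicate block was -0.20 for *Clic5* and -0.11 for *Htra4*, and over left-out libraries ranged from -0.38 to 3.41 (*Clic5*), -0.24 to 1.15 (*Tspan15*) and -0.078 to 1.21 (*Htra4*).

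Differences in thinned shares, in percentage points, were 2.36, 5.82 and 3.95 for *Clic5*, *Tspan15* and all 3 with the gate at 20, 3.61, 4.07 and 3.59 with it at 100 (*Htra4* 10.4) and 0.315, 4.94 and 5.78 without thinning. Over left-out libraries, chosen after seeing the data, they ranged from -11.4 to 8.06 (*Clic5*), -3.50 to 3.67 (*Tspan15*), -0.063 to 9.08 (*Htra4*) and -6.20 to 4.42 (all 3).

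Counts of genes called ranged over alternatives from 2457 to 4760 for the gate (3974 as reported), 4 to 1358 for injury in the gate (265), 0 to 131 for lineage there (1), 145 to 2674 for injury over all Tom+ cells (2023), 3 to 1283 in Tom-GFP+ cells (139), 0 to 100 and 0 to 175 for lineage in steady and injured states (2 and 7), 0 to 4 for the difference (0), 128 to 2678 for injury outside the gate (1717) and 0 to 176 for lineage there (2). Same-numbered libraries had deviations correlated at 0.051 to 0.26, and the study calls the Tom-GFP+ mice matched but neither it nor the labels say to which Tom+ library, so the replicate block pairs by number alone. It called 121 genes for lineage in the injured gate in place of 1, and 0 in place of 7 over all injured stromal cells. With 2 steady-state Tom+ libraries and 1 Tom-GFP+ library, only large differences could pass in the fits on levels. No difference in shares could pass by permutation.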
